A study of Mus musculus with 9 samples.

Results

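The genes described here encode proteins of the mitochondrial ribosome. They were taken by name, as every gene symbol that starts with Mrpl or Mrps followed by a digit. This gave 77 genes of the 23997 gene symbols measured. Proteins of the large ribosomal subunit account for 50 of them and proteins of the small subunit for 26. Mrps18a and Mrps30 were counted with the large subunit, where their proteins are placed in structures of the mammalian mitoribosome. The remaining gene, Mrps36, carries the name of a ribosomal protein but encodes a component of the 2-oxoglutarate dehydrogenase complex. Each of the 77 genes had a single locus, and together they lay on 17 chromosomes. Every gene was above 0 in all 9 libraries and passed the filter on low values (a mean of at least 0.5 scaled FPKM), so that all 77 entered the test across 13043 genes. FPKM, the number of fragments relative to transcript length and library size, is a level per length. A comparison of levels between genes therefore depends on the length assigned to each gene.

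Retinal ganglion cells (RGCs), the neurons whose axons form the optic nerve, were isolated from C57BL/6J mice of 8 weeks of age by immunopanning, in which unwanted cells are first bound to coated dishes and RGCs are then captured by their surface Thy1.2. The Control eyes had received an injection of saline into the anterior chamber, and the other eyes an injection of microbeads, which obstruct the outflow of fluid and raise intraocular pressure (IOP). Microbead-injected eyes were sorted by their IOP over 2 weeks into the Mild IOP and Moderate IOP groups. RNA was pooled within each group, and each pool was divided over 3 libraries, so that the 9 libraries represent 3 pools and every error and p-value below covers the spread between libraries of a pool, not between animals.

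Mitochondria carry ribosomes of their own, which translate the few proteins encoded in mitochondrial DNA. These proteins are core subunits of the respiratory chain and of ATP synthase. All proteins of the mitoribosome are encoded in the nucleus, made in the cytosol and imported, and they join ribosomal RNAs that are transcribed inside the mitochondrion. Some are homologues of bacterial ribosomal proteins and others were added during the evolution of mitochondria. The stretch of the RGC axon inside the retina is unmyelinated and rich in mitochondria.

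Library depth, derived from the confidence intervals of the FPKM, was 4780000 to 8610000 fragments. The second Mild IOP library stood apart. A single gene took 20.5% of its summed FPKM, against 9.14% in the third Moderate IOP library and 1.87 to 3.59% in the other 7, and its short transcripts were the lowest of any library. All 10 RGC markers were detected, and their summed level was 1450 to 1530 scaled FPKM in Control, 1070 to 1310 in Mild IOP and 2290 to 2430 in Moderate IOP. Of these 10 markers, 6 were higher in Moderate than in Mild IOP at a false discovery rate (FDR) below 0.1 and 0 were lower. Over all tested genes, 7.03% were higher and 3.12% lower. The 8 amacrine cell markers summed to 787 to 827, 864 to 919 and 576 to 617 scaled FPKM in the same order of groups, and the 8 rod markers to 501 to 600, 329 to 396 and 346 to 400. The amacrine markers did not move as one. Of 7 tested, 4 had a Log2 fold-change above 0 and 3 below 0 in Moderate against Mild IOP. Their median was 0.115, and 3 were called lower and 0 higher. The 6 bipolar cell markers summed to 59.0 to 75.5, 53.1 to 67.2 and 88.0 to 99.1 scaled FPKM. In Moderate against Mild IOP, 3 of them were above 0 and 3 below, with 1 called higher. The 6 Muller glia markers summed to 590 to 616, 604 to 656 and 593 to 638. Of these, 4 were above 0 and 2 below in Moderate against Mild IOP, with 2 called higher. The 4 endothelial markers summed to 1.83 to 2.73, 2.42 to 3.18 and 1.11 to 3.11 scaled FPKM. Cldn5 and Cdh5 among them were listed at 0 in all libraries. The 6 lens markers summed to 304 to 367 scaled FPKM in Control and to at most 5 elsewhere. In pooled RNA, fewer cells of a type and less RNA per cell cannot be told apart. The part of these differences in the results below was not tested.

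The mitoribosomal protein genes were expressed over a wide range of levels. Their mean over the 9 libraries had a median of 56.9 scaled FPKM and spanned a 67.7-fold range, with 16 genes at 100 scaled FPKM or more and 5 below 10. The highest was Mrps21, which encodes a small-subunit protein with a bacterial homologue, at 343 scaled FPKM. It was followed by Mrpl27 at 215, Mrpl42 at 208, Mrpl20 at 194 and Mrpl23 at 189.8 scaled FPKM, all of the large subunit. Mrpl27 lies close to the site of peptide bond formation in the ribosome, and Mrpl23 next to the exit of the tunnel for the nascent chain. The lowest was Mrpl1, the protein of the mobile stalk beside the exit site for tRNA, at 5.07 scaled FPKM. Mrps25 at 8.32, Mrpl17 at 8.47, Mrpl35 at 9.41 and Mrpl15 at 9.78 scaled FPKM came next, and these neighbours in the order overlapped in their libraries. The median level was 60.8 scaled FPKM for the large subunit and 52.5 for the small subunit. By annotation, transcripts of the 5 highest genes were 446.5 to 764 nt long, and those of the 5 lowest 2490.5 to 7300 nt. The part of transcript length in this order was not tested.

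**Figure D1:**
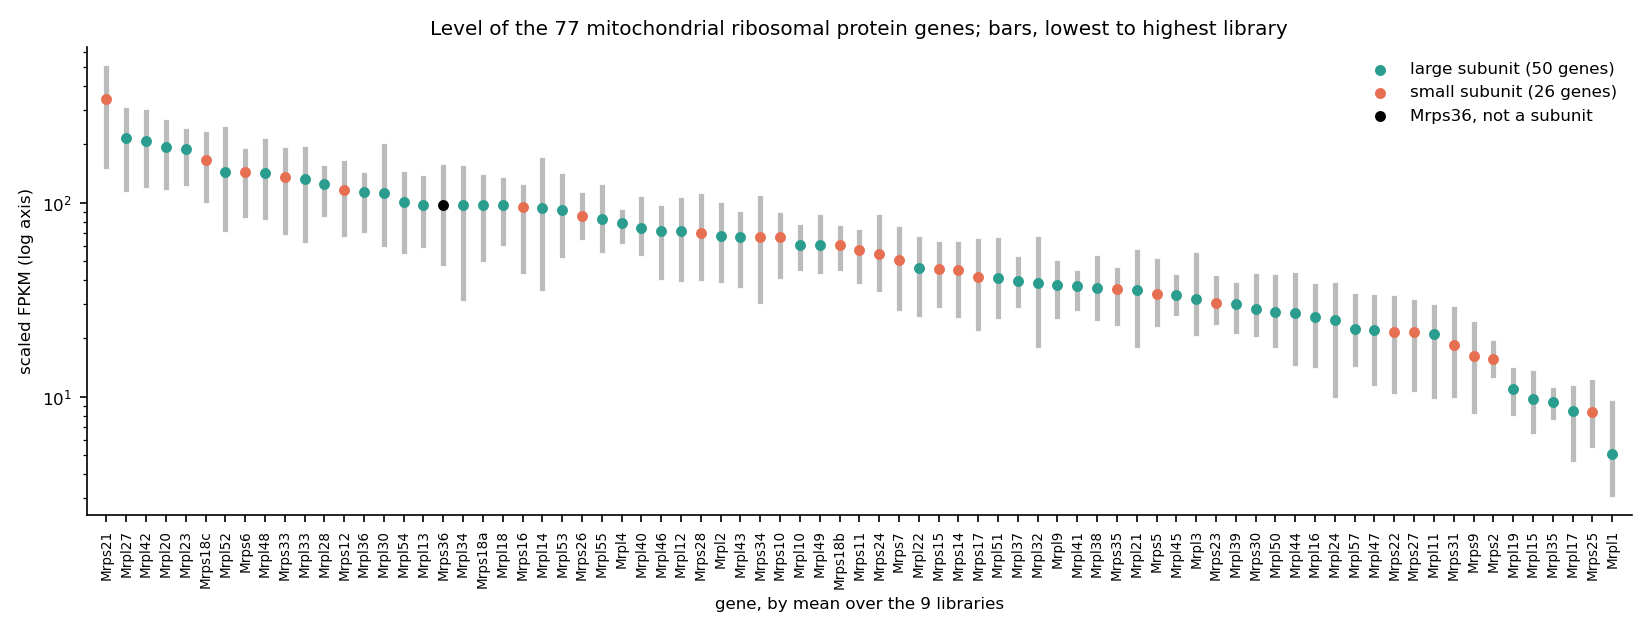
Level of each of the 77 genes on a log axis in scaled FPKM, ordered by the mean over the 9 libraries (points), with bars from the lowest to the highest library and colours for the subunit. Mrps21 stands highest at 343 scaled FPKM and Mrpl1 lowest at 5.07, and large- and small-subunit genes are interspersed.

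The spread between libraries of a pool differed between genes. The coefficient of variation over the 3 Control libraries had a median of 14.7%. It was smallest for Mrps11 at 1.35%, whose Control libraries read 60.8, 60.8 and 59.4 scaled FPKM. It was largest for Mrpl32 at 56.6%, with Control libraries at 18.4, 24.3 and 51.8 scaled FPKM. Mrpl32 encodes a large-subunit protein that the m-AAA protease of the inner membrane must cleave before ribosomes assemble. The lowest number of fragments behind any value was about 40.0, and the median over genes of the lowest library was 194.

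The first question was whether mild IOP elevation changed these genes against Control. No gene passed the test, yet nearly all lay lower in Mild IOP. With limma, 0 of 77 were called at an FDR below 0.1, where 0.399% of all tested genes were called. The Log2 fold-change was below 0 for 71 of 77 genes, compared with 49% of all tested genes, and its median was -0.44 against 0.01 for all tested genes. Among all tested genes with annotated transcripts under 1200 nt, 1122 of 1484 were below 0, with a median of -0.362. Of the 77, the 35 genes of that length had a median of -0.494, and 34 were below 0. At an unadjusted p below 0.05, 36 genes were lower and 1 was higher (background 7% lower and 3.15% higher). In 30 genes (39%) every Mild IOP library lay below every Control library, which held for 9.13% of all tested genes.

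Mrps15, a small-subunit protein that binds early to the ribosomal RNA, came closest to the threshold. Its Control libraries were at 50.1, 61.3 and 58.8 scaled FPKM and its Mild IOP libraries at 33.0, 29.6 and 30.5. The groups did not overlap, and the Log2 fold-change of -0.85 (SE 0.18, n = 3 against 3) had an adjusted p of 0.112 in limma. Mrps12, the protein of the decoding centre, read 117, 111 and 137 scaled FPKM in Control and 68.9, 73.0 and 93.4 in Mild IOP. Its Log2 fold-change was -0.63 (SE 0.14, limma FDR 0.139). Mrps21, the gene of highest level, read 366, 494 and 439 scaled FPKM in Control and 249, 155 and 334 in Mild IOP, again without overlap (Log2 fold-change -0.87, SE 0.24, limma FDR 0.215). Mrps9, a small-subunit homologue of a bacterial protein, was the 1 gene with every Mild IOP library above every Control library. Its Control libraries were at 13.3, 13.3 and 8.44 scaled FPKM and its Mild IOP libraries at 13.6, 17.4 and 23.8 (Log2 fold-change 0.60, SE 0.24, limma FDR 0.398).

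The second question was whether moderate IOP elevation changed them against Control. Again 0 of 77 genes passed the test in limma, beside 1.84% of all tested genes, and the shift was smaller and upward. The Log2 fold-change was above 0 for 57 of 77 genes (50.5% of all tested genes), with a median of 0.12 against 0.004. Among all tested genes with annotated transcripts under 1200 nt, 1032 of 1484 were above 0, with a median of 0.199. Of the 77, the 35 genes of that length had a median of 0.115, and 28 were above 0. At an unadjusted p below 0.05, 10 genes were higher and 0 were lower (background 8.03% and 7.26%). In 16 genes (20.8%) every Moderate IOP library lay above every Control library, compared with 9.95% of all tested genes.

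Mrps36 came closest to the threshold in this comparison. Its Control libraries were at 61.3, 68.9 and 117 scaled FPKM and its Moderate IOP libraries at 137, 143 and 153, without overlap. The Log2 fold-change was 0.86 (SE 0.24, limma FDR 0.136), and leaving out the third Control library, which was the highest, gave a call at an FDR of 0.0452 with a Log2 fold-change of 1.14. Mrpl32 had the largest Log2 fold-change of the 77 at 0.94 (SE 0.34, limma FDR 0.233), from Moderate IOP libraries at 64.9, 46.6 and 56.9 scaled FPKM. Its highest Control library overlapped them.

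**Figure D2:**
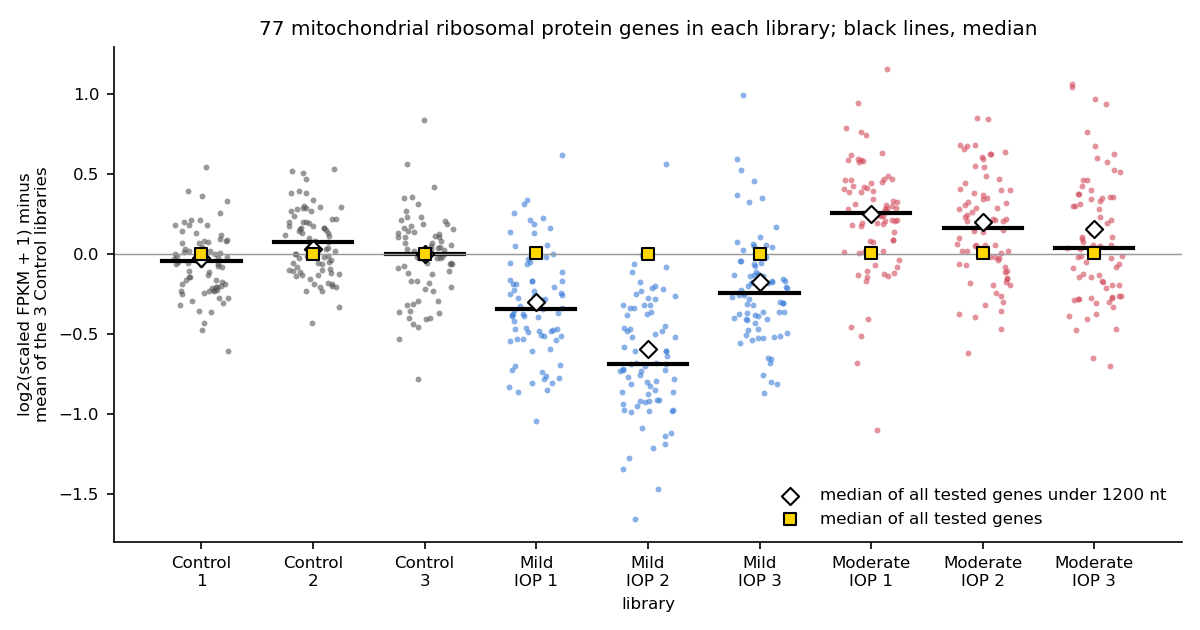
Each point is 1 of the 77 genes in 1 library, as log2(scaled FPKM + 1) minus the mean of the 3 Control libraries; black lines are medians over the 77 genes, squares medians over all tested genes and diamonds medians over all tested genes with transcripts under 1200 nt. The member medians were -0.345, -0.685 and -0.241 in the Mild IOP libraries and 0.259, 0.161 and 0.039 in the Moderate IOP libraries, while the squares stay between -0.001 and 0.008.

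The third comparison set Moderate IOP directly against Mild IOP, and here the genes separated. Of the 77 genes, 29 were higher in Moderate than in Mild IOP and 0 were lower (FDR below 0.1, limma). This is 37.7% of the genes. Of all tested genes, 7.03% were called higher, 3.12% lower and 10.2% in either direction. The rises ranged from 1.29-fold to 2.37-fold, and 25 of the 29 were at least 1.5-fold. The Log2 fold-change was above 0 for 75 of 77 genes (48.4% of all tested genes), with a median of 0.555 against -0.016. In 44 genes (57.1%) every Moderate IOP library lay above every Mild IOP library, which held for 14.5% of all tested genes.

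By group means, Mild IOP mostly lay below Control and Moderate IOP above it. Neither difference from Control was called for any of the 77 genes. The group means were in the order Mild IOP, Control, Moderate IOP for 50 of 77 genes (64.9%, against 22.2% of all tested genes) and for 25 of the 29 called genes. Among the 29, the distance of Mild IOP from Control was the larger on the log2 scale in 23. In 5 of the 29, every Mild IOP library was below and every Moderate IOP library above every Control library. Summed over the 77 genes, the level was 4228 ± 795 scaled FPKM for the Mild IOP pool, compared with 5843 ± 365 for Control and 6373 ± 354 for Moderate IOP (mean ± SD, n = 3 libraries). The sums of the single libraries were 5611, 6263 and 5654 in Control, 4474, 3339 and 4871 in Mild IOP, and 6726, 6375 and 6019 in Moderate IOP. The Mild IOP libraries were all below the other 6, and the lowest of all was the second Mild IOP library.

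Among the called genes of the large subunit, 17 of 50, Mrpl14 rose the most. Its protein sits at the face of the large subunit that meets the small subunit. Mrpl14 read 85.7, 78.7 and 92.8 scaled FPKM in Control, 61.6, 36.45 and 78.0 in Mild IOP, and 165.5, 137 and 106 in Moderate IOP. The 3 groups did not overlap, and the Log2 fold-change between Moderate and Mild IOP was 1.24 (SE 0.25, FDR 0.0176), a 2.37-fold rise. Mrpl20, the homologue of a bacterial protein that acts early in assembly of the large subunit, had the smallest FDR of its subunit. Its libraries were at 210.3, 199 and 192 scaled FPKM in Control, 153, 120.3 and 156 in Mild IOP, and 262.5, 241 and 208 in Moderate IOP. Mild IOP lay below both other groups, while the lowest Moderate IOP library overlapped Control. The Log2 fold-change was 0.73 (SE 0.13, FDR 0.0129).

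Mrpl34, a short homologue of a bacterial protein, read 88.9, 151 and 83.5 scaled FPKM in Control, 58.1, 32.3 and 90.19 in Mild IOP, and 118, 152 and 103 in Moderate IOP. The error was wide for a Log2 fold-change of 1.13 (SE 0.33, FDR 0.0745), and the Mild IOP libraries overlapped Control. Mrpl11, part of the base of the stalk that receives translation factors, read 24.1, 21.2 and 22.35 scaled FPKM in Control, 15.25, 10.1 and 16.8 in Mild IOP, and 26.8, 29.1 and 23.2 in Moderate IOP. All Mild IOP libraries lay below all others (Log2 fold-change 0.88, SE 0.19, FDR 0.0246). Mrpl15 and Mrpl17 were among the 5 genes of lowest level. Mrpl15 read 6.70, 6.84 and 6.76 scaled FPKM in Mild IOP and 11.8, 13.3 and 13.0 in Moderate IOP, with Control between them at 8.37, 11.7 and 9.55. Mrpl17 read 4.78, 5.75 and 6.38 in Mild IOP and 11.1, 10.78 and 11.1 in Moderate IOP, with Control at 6.885, 10.77 and 8.67. The Moderate IOP libraries of both genes were above all Control libraries, and the Log2 fold-changes against Mild IOP were 0.82 (SE 0.18, FDR 0.0249) for Mrpl15 and 0.86 (SE 0.20, FDR 0.0332) for Mrpl17.

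In the small subunit, 11 of 26 genes were called. Mrps12 had the smallest FDR of the 77 genes. Its Moderate IOP libraries read 146, 160.2 and 139 scaled FPKM, above all Control libraries, beside the Mild IOP and Control libraries given above (Log2 fold-change 0.92, SE 0.14, FDR 0.00769). Mrps17, the homologue of a bacterial protein that binds ribosomal RNA directly, read 42.1, 40.1 and 43.2 scaled FPKM in Control, 22.6, 25.35 and 37.1 in Mild IOP, and 51.7, 46.8 and 63.95 in Moderate IOP. Its 3 groups did not overlap (Log2 fold-change 0.93, SE 0.19, FDR 0.0186). Mrps33, which has no bacterial homologue, read 138, 111 and 178 scaled FPKM in Control, 91.7, 70.65 and 116 in Mild IOP, and 171, 162 and 188 in Moderate IOP. Mild and Moderate IOP were separate, and Control overlapped both (Log2 fold-change 0.92, SE 0.20, FDR 0.0242). Mrps24, which lines the channel through which mRNA enters, read 35.8, 40.1 and 40.6 scaled FPKM in Mild IOP and 85.02, 80.04 and 55.35 in Moderate IOP (Log2 fold-change 0.88, SE 0.18, FDR 0.0200). Mrps25 read 5.62, 5.93 and 7.38 scaled FPKM in Mild IOP and 10.8, 10.3 and 11.9 in Moderate IOP, with Control at 6.985, 8.75 and 7.285 and a Log2 fold-change of 0.72 (SE 0.19, FDR 0.0479). Mrps36, the gene that is not of the ribosome, read 65.9, 48.8 and 82.15 scaled FPKM in Mild IOP. Against its Moderate IOP libraries this was a Log2 fold-change of 1.16 (SE 0.24, FDR 0.0204), the second largest of the 77.

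Some genes differed little between the groups. Mrps35 and Mrps2 were the only genes with a Log2 fold-change below 0 between Moderate and Mild IOP, at -0.10 (SE 0.20) and -0.06 (SE 0.20), and neither was called (limma FDR 0.825 and 0.894). Mrps23, Mrps9 and Mrps18b were at 0.06, 0.07 and 0.13. These 5 genes all belong to the small subunit, whose Log2 fold-changes had a median of 0.56 like those of the large subunit at 0.55. Of the 5 genes of highest level, Mrpl20, Mrpl27 and Mrpl23 were called and Mrps21 and Mrpl42 were not (limma FDR 0.199 and 0.108). Just outside the threshold lay Mrpl50 at an FDR of 0.103, and just inside Mrpl18 at 0.0949 (limma). Grouped by origin, 23 of 48 homologues of bacterial proteins and 5 of 28 mitochondria-specific proteins were called, with median Log2 fold-changes of 0.58 and 0.48. The median transcript length was 1115 nt in the former and 1461 nt in the latter, and the difference between these groups was not tested.

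**Figure D3:**
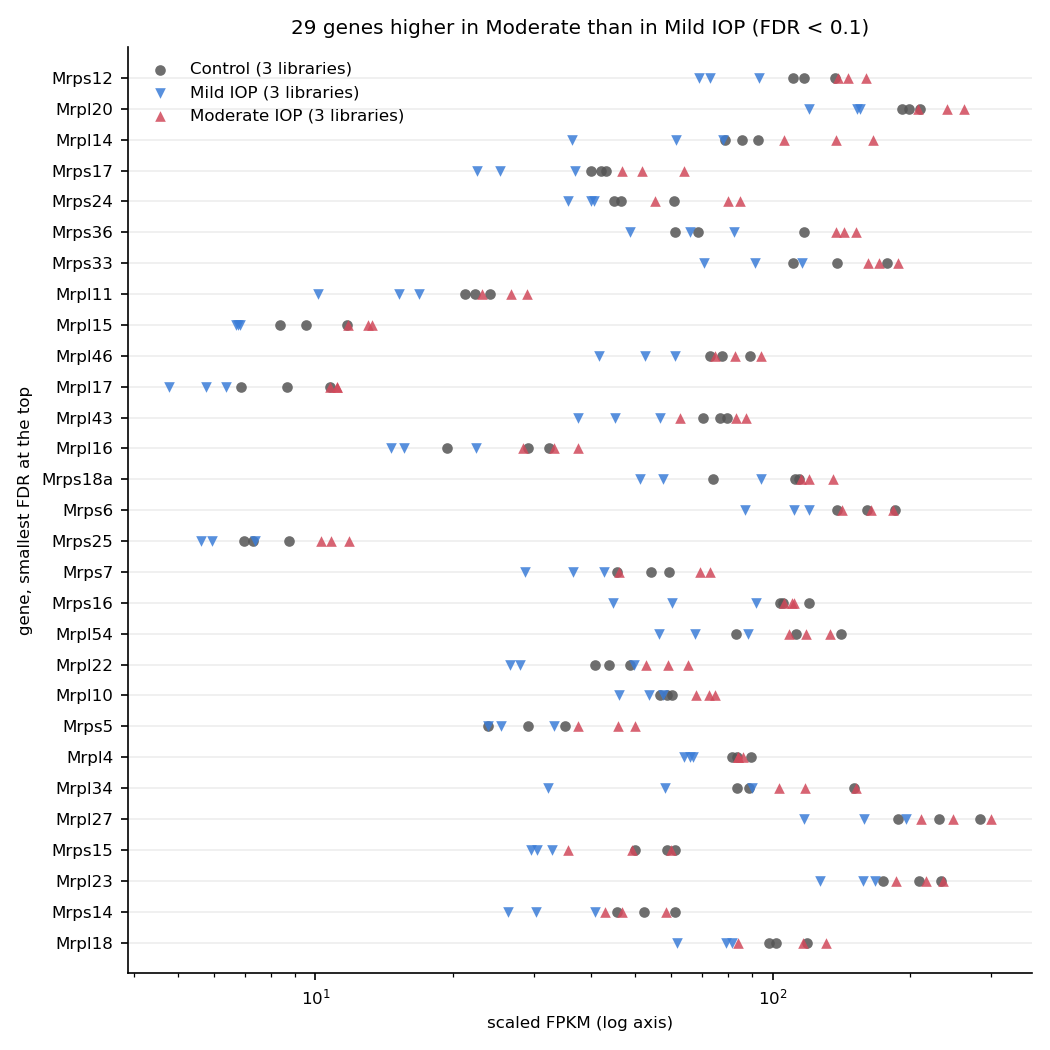
Scaled FPKM (log axis) in each of the 9 libraries for the 29 genes higher in Moderate than in Mild IOP, ordered by FDR; circles are Control, downward triangles Mild IOP and upward triangles Moderate IOP. Mild IOP lies to the left of Moderate IOP without overlap in each row, and Control lies between them or overlaps one of them in most rows.

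The fold-changes of all genes varied with transcript length, and many of the mitoribosomal transcripts are short. Their median annotated length was 1226 nt. Of all tested genes with transcripts under 1200 nt, 31.3% were called higher in Moderate than in Mild IOP, with a median Log2 fold-change of 0.55, compared with 1.97% and a median of -0.11 among genes of at least 2000 nt. Of the 35 mitoribosomal genes under 1200 nt, 16 were called, with a median of 0.62. Of the 23 genes of at least 2000 nt, 7 were called, with a median of 0.53. The libraries showed the same pattern. In the second Mild IOP library, all genes under 1200 nt had a median deviation of -0.59 from the Control mean on the log2 scale, and the 77 genes a median of -0.685.

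Annotated length is not always the length behind the FPKM. In 7 genes, the length derived from fragments, FPKM and depth was below 0.3 of the annotated length. By derived length, which comes out too short for abundant genes, 10 mitoribosomal genes had at least 2000 nt. Of these, 4 were called and all 10 had a Log2 fold-change above 0, with a median of 0.56. Of all tested genes of that derived length, 1.55% were called higher and 35.9% were above 0, with a median of -0.12. The 4 genes were Mrpl11, Mrpl15, Mrpl17 and Mrps25, with derived lengths of 2950, 2880, 7300 and 5730 nt. After the trend with annotated length was removed from each library, 6 of 77 genes were called higher (background 2.28%), and after the trend with derived length 4 (background 1.81%). Those 4 were called in both cases, and Mrps5 and Mrps16 with annotated length alone, whose derived lengths of 1300 and 332 nt were among those below 0.3 of the annotation. The median Log2 fold-change of the 77 genes was then 0.27 and 0.18.

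The count also depended on the second Mild IOP library. Without it, 9 of the 29 genes were called, 8 subunit genes and Mrps36, where 3.27% of all tested genes were called higher, and the median Log2 fold-change was 0.43. These were Mrpl11, Mrpl14, Mrpl15, Mrpl20, Mrps12, Mrps17, Mrps24, Mrps33 and Mrps36, and the same 9 were called in each of the 9 fits that left out 1 library. Without this library and with the annotated length trend removed, 0 genes were called in limma and the median was 0.22.

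**Figure D4:**
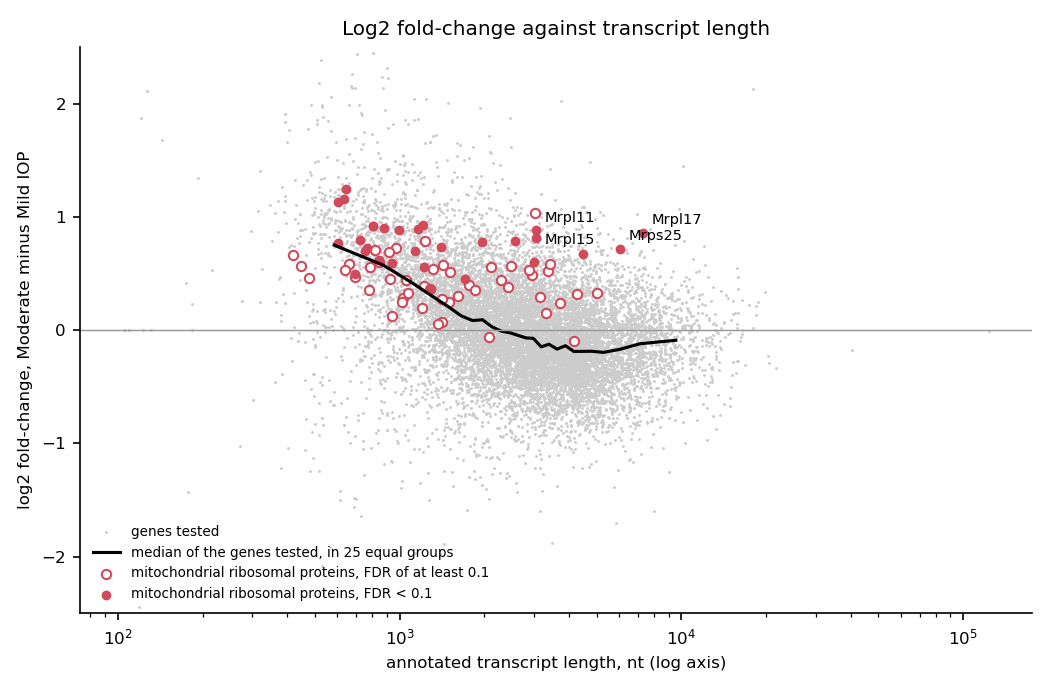
Log2 fold-change between Moderate and Mild IOP against annotated transcript length in nt (log axis), for all tested genes (grey, with their running median as a black line) and the 77 mitoribosomal genes (red circles, filled where the FDR was below 0.1); 21 genes beyond 2.5 on the vertical axis are not drawn. The black line falls from above 0.5 for the shortest transcripts to below 0 beyond 3000 nt, and Mrpl11, Mrpl15, Mrpl17 and Mrps25 lie well above it.

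Other genes of mitochondrial translation were examined by lists. Of the 7 mitoribosomal proteins without an Mrp symbol, 6 were tested and 3 were higher in Moderate than in Mild IOP. Gadd45gip1, a large-subunit protein, read 21.2, 22.8 and 27.4 scaled FPKM in Mild IOP and 39.05, 41.9 and 37.4 in Moderate IOP (Log2 fold-change 0.71, SE 0.15, FDR 0.0238). Chchd1, of the small subunit, had a Log2 fold-change of 0.83 (SE 0.24, FDR 0.0766), and Ict1, a peptidyl-tRNA hydrolase built into the large subunit, a Log2 fold-change of 0.562 (SE 0.18, FDR 0.0883). The small-subunit proteins Dap3 and Ptcd3 were at -0.27 and -0.08 (limma FDR 0.459 and 0.850).

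Factors that build or use the mitoribosome were examined in the same way, beside the 7.03% of all tested genes that were called higher and 3.12% lower. Of 27 genes for assembly and rRNA modification, 2 were higher and 1 was lower in Moderate than in Mild IOP, with a median Log2 fold-change of 0.10. Rbfa, which matures the small subunit, read 18.8, 15.0 and 12.8 scaled FPKM in Control, 15.3, 17.2 and 14.9 in Mild IOP and 36.3, 27.8 and 28.3 in Moderate IOP. Its Moderate IOP libraries were above all others, and it was higher against Mild IOP (Log2 fold-change 0.915, SE 0.18, FDR 0.0170) and against Control (0.95, FDR 0.0405). Mpv17l2 was the other gene that was higher (0.63, FDR 0.0499), and Dhx30, an RNA helicase of mitochondrial RNA granules, fell by 0.67 on the log2 scale (SE 0.15, FDR 0.0295) in Moderate against Mild IOP. A list of translation factors had 15 genes tested and also held Slirp, Lrpprc and Oxa1l, which have other roles. Its only gene higher in Moderate than in Mild IOP was Slirp, a stabiliser of mitochondrial mRNAs (1.08, SE 0.21, FDR 0.0162). The elongation factor Tufm was lower in Moderate IOP than in Control (-0.52, FDR 0.0953). Of 19 mitochondrial aminoacyl-tRNA synthetases, Ears2 was lower in Moderate than in Mild IOP (-0.96, SE 0.27, FDR 0.0656) at a level of 1.30 to 2.10 scaled FPKM, and 0 were higher. A further list of 22 genes covered maintenance and transcription of mitochondrial DNA, processing of its RNA, and the regulators Nrf1, Gabpa, Ppargc1a and Esrra. Of these 22, 0 were called in limma, and 5 had an unadjusted p below 0.05 (21.8% of all tested genes). Of the 15 listed genes encoded in mitochondrial DNA, 0 were found among the gene symbols measured, so they could not be analysed.

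Cytosolic ribosomal proteins and nuclear-encoded subunits of oxidative phosphorylation were set beside them for scale. Of 80 cytosolic ribosomal protein genes, 69 were higher in Moderate than in Mild IOP, with median Log2 fold-changes of -0.65, 0.265 and 0.94 for Mild IOP against Control, Moderate IOP against Control and Moderate against Mild IOP. Of 82 oxidative phosphorylation genes tested, 61 were higher and 1 was lower, with medians of -0.55, 0.24 and 0.77. The corresponding medians of the 77 mitoribosomal genes were -0.44, 0.12 and 0.555. Median transcript lengths were 777.5 and 755 nt in these lists, shorter than in the mitoribosomal genes, and the differences between the lists were not tested.

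**Figure D5:**
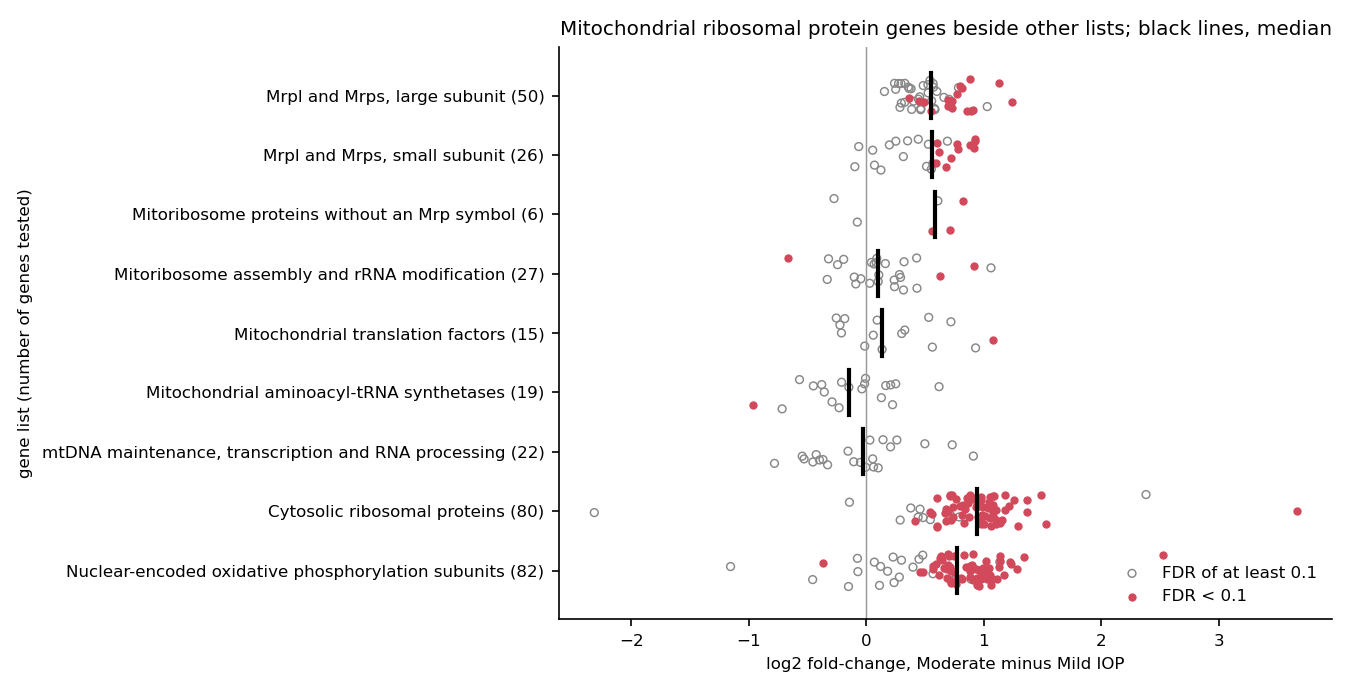
Log2 fold-change between Moderate and Mild IOP for each tested gene of the 2 subunits and of the other lists, filled where the FDR was below 0.1, with black lines at the medians. The mitoribosomal subunits sit at medians of 0.55 and 0.56, between 0.94 for cytosolic ribosomal proteins and about 0 for the genes of mitochondrial DNA maintenance.

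The start sites of these genes were also described, and their relation to the fold-changes was not tested. RefSeq promoter windows (GRCm38.p6, 250 bases before to 50 after the start) were found for 68 of the 77 genes. A protein-coding gene that starts within 1000 bp in the opposite direction lay beside 24 of the 68 (35.3%), compared with 12.9% of the tested genes with a window. The 21 tested neighbours that are not mitoribosomal genes had a median Log2 fold-change of -0.12 between Moderate and Mild IOP, and 3 of them were higher (Psma2, Fau and Ndufb5) and 0 lower. Over all tested genes the median was -0.016, with 7.03% called higher and 3.12% lower. Mrpl46 and Mrps11 start 42 bp apart and read 0.70 (FDR 0.0301) and 0.44 (limma FDR 0.130). The stretch below lies between the start sites of Mrps12, the called gene of smallest FDR, and its neighbour Sars2, which are 147 bp apart and of which Sars2 was at 0.25 (limma FDR 0.588). It is given on the strand of Mrps12 (chr7:28741822-28741967, minus strand) and holds no annotated exon. Tmem63b, which starts 131 bp from the called gene Mrpl14, was at -0.14 (limma FDR 0.714).
Mrps12: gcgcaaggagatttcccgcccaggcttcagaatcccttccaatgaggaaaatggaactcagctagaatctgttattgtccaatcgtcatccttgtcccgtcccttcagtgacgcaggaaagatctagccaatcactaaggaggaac

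Cores of 3 motifs were searched on both strands of the windows, and matches describe letters and not binding. The core bound by NRF1, a regulator of respiratory genes (GCGCA, then any base, then GCGC), was found in 13 of 68 windows (19.1%), compared with 10.6% of the windows of tested genes and 4.78% of all windows. CCGGAAG, a core of ETS factors, was found in 24 (35.3%, 17.7% of tested and 9.12% of all), and AAGATGGCG, a core of YY1, in 8 (11.8%, 3.25% of tested and 1.49% of all). Of the 29 called genes, 26 had a window, with the NRF1 core in 2 (7.69%), the ETS core in 10 (38.5%) and the YY1 core in 2 (7.69%). The NRF1 and YY1 shares were below those of the 68 windows, and these differences were not tested. The 4 called genes with an NRF1 or a YY1 core are shown with the core in capitals. Counted from the start site, the first base of the core was at 4 in Mrpl14, -49 in Mrpl17, 11 in Mrps18a and 36 in Mrps24. Only the core of Mrpl17 thus lay before the start. The stretches lie at chr17:45686343-45686372 (Mrpl14, plus strand), chr7:105811117-105811146 (Mrpl17, minus strand), chr17:46111005-46111033 (Mrps18a, plus strand) and chr11:5707652-5707675 (Mrps24, minus strand).
Mrpl14, NRF1 core: aacccctggcGCGCAGGCGCagcgtgcggg
Mrpl17, NRF1 core: aggctctgatGCGCACGCGCaaacgcggta
Mrps18a, YY1 core: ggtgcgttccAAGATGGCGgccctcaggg
Mrps24, YY1 core: gcgccggcccAAGATGGCGtggtc

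The library kit does not record the strand, so that reads in an exon shared by overlapping genes cannot be assigned by strand. Loci were compared with their introns included, and an overlap of exons was not tested. By this measure, 11 of the 77 loci overlap the locus of another gene. Of the called genes this concerns Mrps6, whose locus shares 29138 bp with Slc5a3, and Mrps25, which shares 3536 bp with Nr2c2.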

How the data were processed

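RGC libraries of 3 groups (Control, Mild IOP, Moderate IOP; 3 technical replicates of 1 RNA pool each) were made with an oligo-dT primed, unstranded kit and sequenced in pairs. The authors aligned reads to mm10 and estimated the deposited FPKM with cufflinks, each with a confidence interval. The study's methods name bowtie2 as aligner, and the submitters' processing notes name TopHat2.

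Loci that share a symbol were summed in FPKM, libraries were scaled by median-of-ratios, and 2 symbols with failed estimates were dropped. A group-means model of log2(scaled FPKM + 1) was fitted to the 9 libraries together (limma 3.58.1, R 4.3.3, mean-variance trend). Every FDR given is the Benjamini-Hochberg adjusted p of this moderated test over 13043 genes with a mean of at least 0.5 scaled FPKM, and 0.1 was the threshold. Fold-changes are on the log2(value + 1) scale, which understates those of low genes. Fragments were derived as (2 × FPKM / (upper bound − FPKM)) squared, since the deposited files hold no counts. Transcript lengths are medians over RefSeq-linked GENCODE M21 transcripts, of the same assembly as mm10. Without stated separate cultures or animals, p-values measure technical spread.

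Genes were named by rank in fold-change, level and Control variation. The other genes named were chosen after their values were seen. The members, the lists and the tests were chosen with earlier results of these data known. Alternatives covered scaling, pseudocount, filters, a replicate block, the samples in the fit, length trends and each library left out.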

Additional observations from a re-analysis of the deposited data

Results flagged for a closer look

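The effects of Mild and of Moderate IOP against Control differed from each other in 29 of the 77 genes, as tested by the direct contrast of the 2 IOP groups, which share the same Control libraries. All 29 were higher in Moderate than in Mild IOP (limma FDR below 0.1). Of all tested genes, 7.03% were called higher and 3.12% lower, and of those with transcripts under 1200 nt, 31.3% were called higher. Among the 29, the 5 genes with the largest log2 differences were Mrpl14 at 1.24, Mrps36 at 1.16, Mrpl34 at 1.13, Mrps17 at 0.93 and Mrps33 at 0.92. Against Control, these 5 were at -0.60, -0.30, -0.90, -0.58 and -0.62 in Mild IOP and at 0.64, 0.86, 0.24, 0.36 and 0.31 in Moderate IOP.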

How the results depend on the processing

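For Moderate against Mild IOP, 29 genes were called, all higher (7.03% of all tested genes were called higher). The count was 19 with no filter on low values, 6 with the transcript length trend removed (2.28% of all tested genes higher) and 4 with the derived length trend removed (1.81%). It was 0 with the transcript length trend removed and the second Mild IOP library left out (the last 2 alternatives were chosen after seeing the data). It was 9 to 29 with 1 library left out, with 18 and 9 without the first and second Mild IOP library and 13 and 15 without the first and second Moderate IOP library. The median Log2 fold-change was 0.270, 0.176 and 0.223 in these length settings and 0.431 to 0.609 with 1 library left out. For Mild IOP against Control, 0 genes were called (52 of 13043 over all tested genes). The count was 2 with a mean of at least 5 scaled FPKM (Mrps12 and Mrps15, 85 of 8180 over all). It was 1 with robust empirical Bayes (Mrps15, 79 of 13043 over all) and 0 to 7 with 1 library left out. It was 7 without the third Mild IOP library (172 of 13043 over all) and 1 without the first or the third Moderate IOP library (37 and 40 of 13043 over all). Its median was -0.246, -0.186 and -0.188 in the length settings and -0.506 to -0.308 with 1 library left out. For Moderate IOP against Control, 0 genes were called (240 of 13043 over all tested genes). The count was 1 with the derived length trend removed (Mrps21, lower, 327 of 12917 over all). It was 0 to 2 with 1 library left out, with 2 without the third Control library (Mrps36 and Mrpl32, 271 of 13043 over all). Its median was 0.025 in both settings with the transcript length trend, 0.038 with the derived length trend and 0.097 to 0.216 with 1 library left out, the highest without the second Control library. Of the 75 genes above 0 in Moderate against Mild IOP, 14 turned below 0 with the transcript length trend removed, 17 with the derived length trend removed and 21 with the transcript length trend removed and the second Mild IOP library left out. Of the 5 genes of highest level, these were Mrpl23 (-0.069, -0.205 and -0.072 in this order), Mrps21 (-0.110, -0.350 and -0.292) and Mrpl42 in the last 2 settings (-0.031 and -0.040). The cause of these changes was not tested. The direction of each median held in all 23 alternatives. No gene was called in every one of them.

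Replicate numbers are shared between groups, but deviations of same-numbered libraries from their group means correlated at 0.012 on average (-0.005 to 0.044), so the numbers do not pair the libraries. A fit with the replicate block called 25 genes in Moderate against Mild IOP. About 40.0 derived fragments stood behind the least covered value, which was in Mrpl47 at a mean level of 22.15 scaled FPKM. So few fragments limit the precision of such values.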
